A study of Mus musculus with 15 samples.

Results

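The phagocyte NADPH oxidase is described here through 5 of its subunit genes, Cybb, Cyba, Ncf1, Ncf4 and Rac2, across all 5 cell populations of a mouse bone marrow RNA sequencing study. The members were chosen by gene symbol from one deposited expression table, and all 5 were found among its 14801 genes. Cells were sorted by flow cytometry from fresh marrow of healthy mice, and 3 libraries were made per population. The labels name the populations CMP (common myeloid progenitor, the usual reading of that abbreviation), CD115plusGMP (a granulocyte-macrophage progenitor carrying CD115, the receptor of macrophage colony-stimulating factor), PreNeut_Neutrophil, ProNeut_Neutrophil and Neutrophil. No genotype, strain, age or treatment beyond healthy mice is given in the labels, nor are the surface markers of the sort or whether the 3 libraries of a population came from separate animals. P-values therefore reflect library-to-library spread alone, part or all of which may be technical.

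The enzyme passes electrons from NADPH across a membrane to oxygen and makes superoxide, which neutrophils and macrophages use against ingested microbes. Cybb encodes the catalytic subunit and Cyba its membrane partner, and each protein of the pair is unstable without the other. Ncf1 encodes the cytosolic organiser that binds the membrane pair on activation, Ncf4 encodes a cytosolic adaptor that binds a phosphoinositide of the phagosome membrane, and Rac2 is the blood-cell GTPase that switches the assembled complex on. Human patients with inherited loss of CYBB, CYBA, NCF1 or NCF4 have chronic granulomatous disease, in which phagocytes make too little superoxide.

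In GRCm38, with the GENCODE M21 annotation, Cybb (Entrez 13058) lies on chromosome X from 9435252 to 9487771 on the minus strand. Cyba (Entrez 13057) lies on chromosome 8 from 122424776 to 122432930, minus strand, and Ncf1 (Entrez 17969) on chromosome 5 from 134220053 to 134229625, minus strand. Ncf4 (Entrez 17972) and Rac2 (Entrez 19354) are both on chromosome 15, Ncf4 from 78244801 to 78262580 on the plus strand and Rac2 from 78559167 to 78572783 on the minus strand. The summed exon lengths are 5808 bases for Cybb, 1039 for Cyba, 3663 for Ncf1, 2020 for Ncf4 and 3103 for Rac2. Of the exon bases of Ncf1, 408 overlap an exon of Gtf2ird2, a protein-coding gene on the opposite strand. The other 4 members overlap no exon of an opposite-strand gene.

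Promoter sequence was matched for Cybb, Cyba and Ncf1 in RefSeq (GRCm38.p6), and it is shown as a description. The part of these sequences in the expression differences was not tested. Each line gives the 150 bases before the RefSeq start site, 5′ to 3′ on the strand of the gene, with a CCAAT motif in capitals. The positions are chrX:9469325-9469474 for Cybb, chr8:122432941-122433090 for Cyba and chr5:134229626-134229775 for Ncf1, all on the minus strand. The Cybb start site of RefSeq lies inside the longer GENCODE span.
Cybb: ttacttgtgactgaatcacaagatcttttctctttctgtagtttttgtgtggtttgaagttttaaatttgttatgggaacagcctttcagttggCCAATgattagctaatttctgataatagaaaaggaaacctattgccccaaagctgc
Cyba: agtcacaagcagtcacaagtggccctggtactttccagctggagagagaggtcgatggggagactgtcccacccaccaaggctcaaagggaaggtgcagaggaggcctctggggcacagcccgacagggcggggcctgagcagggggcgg
Ncf1: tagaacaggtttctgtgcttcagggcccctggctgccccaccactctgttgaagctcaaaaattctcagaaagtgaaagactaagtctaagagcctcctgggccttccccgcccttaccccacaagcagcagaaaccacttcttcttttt
The next line gives the 30 bases that follow the Cybb start (chrX:9469295-9469324), with the reverse complement of GAGGAA in capitals.
Cybb, from its start: tgttttcatTTCCTCatcagaagaagaagc

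In windows of 300 bases around the start, 250 before it and 50 from it on, 3 motifs were searched on both strands: GAGGAA (the core bound by PU.1-type factors), CCAAT, and TTNNGNAA (a half-fixed C/EBP-type motif). Cybb held 1 CCAAT, which begins 56 bases before the start, and 1 GAGGAA on the opposite strand, which begins at base 10 of the transcript; the matches do not overlap. Cyba and Ncf1 held none of the 3 in this window. Over 32851 promoters of the same length, 28.3% held GAGGAA, 37.4% CCAAT and 40.7% TTNNGNAA, so single matches are common. The 150 bases shown have a GC content of 35.3% for Cybb, 64.7% for Cyba and 50.7% for Ncf1.

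The libraries fall into 2 sets that differ in depth and counting. The first set holds CMP, CD115plusGMP and Neutrophil, with 810794 to 1444403 reads per library in the table, of which 55.6% to 69.5% fell on 503 identifiers without a gene symbol. The second set holds PreNeut_Neutrophil and ProNeut_Neutrophil, with 7493694 to 68171606 reads and 0.102% to 0.146% on such identifiers. Of the reads on the 13 mitochondrial protein genes, 69.1% to 93.3% were on ND6, the one encoded on the other strand, in the first set, against 0.154% to 0.230% in the second. The strand setting of the counting is not given in the sources used here, so a first-set value, a 0 included, is one for the locus and may rest partly or mainly on reads of the opposite strand. That limit holds for every first-set level and difference below. Between the sets, library set and cell population cannot be told apart, and comparisons across them are given only with that limit.

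Levels below are the deposited log2 CPM, the log2 of reads scaled to the library size that the deposited values imply. That implied size is not the number of reads in the table. It was 0.254 to 0.908 times those reads in first-set libraries and 1.93 to 2.24 times in second-set libraries. Every CPM and scaled ratio below carries this rescaling, so levels compared across the sets depend on it. Cybb, the catalytic subunit, was at −0.79, 2.09 and −1.31 in the 3 CMP libraries, which rest on 0, 4 and 0 reads. In CD115plusGMP libraries it was at 5.75, 5.53 and 5.76 (41, 24 and 28 reads). The CMP values lie below all CD115plusGMP values, and the CD115plusGMP libraries lie close together. Cybb was at 10.87, 10.89 and 10.97 in PreNeut_Neutrophil and at 11.09, 11.06 and 11.15 in ProNeut_Neutrophil, and it was the member with the highest level in every library of both groups. In Neutrophil libraries it was at 7.64, 7.24 and 8.95, with the third library well above the other two. Its median within-library percentile among all genes of the table was 15.7 in CMP, 89.9 in CD115plusGMP, 99.9 in PreNeut_Neutrophil, 99.9 in ProNeut_Neutrophil and 94.1 in Neutrophil. With 0 reads in 2 of the CMP libraries, the mean of that group depends on depth and on the 0.5 reads added before the log.

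Cyba, the membrane partner, was at 2.67, 1.73 and 2.39 in CMP libraries and at 5.31, 5.40 and 4.32 in CD115plusGMP libraries. It was at 8.52, 8.32 and 8.43 in PreNeut_Neutrophil and at 8.61, 8.59 and 8.74 in ProNeut_Neutrophil. In Neutrophil libraries it was at 7.57, 8.16 and 8.81, a range that on the deposited scale takes in the levels of both second-set groups. Cyba was the only member for which this held; the other 4 were lower in every Neutrophil library than in any library of PreNeut_Neutrophil or ProNeut_Neutrophil. Of all tested genes, 33.8% were lower in every Neutrophil library than in any ProNeut_Neutrophil library.

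Ncf1, the organiser, was at 2.91, 1.24 and 1.01 in CMP libraries (6, 2 and 2 reads) and at 5.16, 4.96 and 5.06 in CD115plusGMP libraries (27, 16 and 17 reads). It was at 10.25, 10.09 and 10.16 in PreNeut_Neutrophil, at 10.45, 10.27 and 10.41 in ProNeut_Neutrophil and at 8.47, 8.45 and 9.44 in Neutrophil. The CMP and CD115plusGMP libraries did not overlap, and Neutrophil replicate 3 again stood above the other two.

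Ncf4, the adaptor, had the fewest reads of the 5 in the progenitors. It was at 1.53, 0.51 and −1.31 in CMP libraries (2, 1 and 0 reads) and at 2.55, 2.72 and 1.51 in CD115plusGMP libraries (4, 3 and 1 reads), and the 2 groups overlap. It was at 8.23, 8.14 and 8.28 in PreNeut_Neutrophil, at 8.40, 8.41 and 8.48 in ProNeut_Neutrophil and at 5.15, 5.57 and 6.99 in Neutrophil. Of the 5 members it showed the widest step between CD115plusGMP and PreNeut_Neutrophil.

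Rac2, the GTPase, was the member with the most CMP reads. It was at 2.02, 3.44 and 2.77 in CMP libraries (3, 11 and 8 reads) and at 5.26, 3.37 and 4.45 in CD115plusGMP libraries (29, 5 and 11 reads), and the lowest CD115plusGMP library lies below the highest CMP library. It was at 10.01, 9.87 and 9.99 in PreNeut_Neutrophil, at 10.15, 9.98 and 10.20 in ProNeut_Neutrophil and at 7.71, 7.87 and 8.58 in Neutrophil. ProNeut_Neutrophil and PreNeut_Neutrophil overlapped for Rac2 and for no other member; of all tested genes, 17.8% were higher in every ProNeut_Neutrophil library than in any PreNeut_Neutrophil library.

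By group means all 5 members had one order, CMP, CD115plusGMP, Neutrophil, PreNeut_Neutrophil and ProNeut_Neutrophil from low to high. Of the neighbours in that order, ProNeut_Neutrophil and PreNeut_Neutrophil did not pass the test for any member, and for Cyba the Neutrophil libraries spanned the levels of both. The place of the 2 second-set groups in the order crosses the library sets. Bulk values of this kind cannot tell fewer expressing cells from less RNA per cell.

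**Figure D1:**
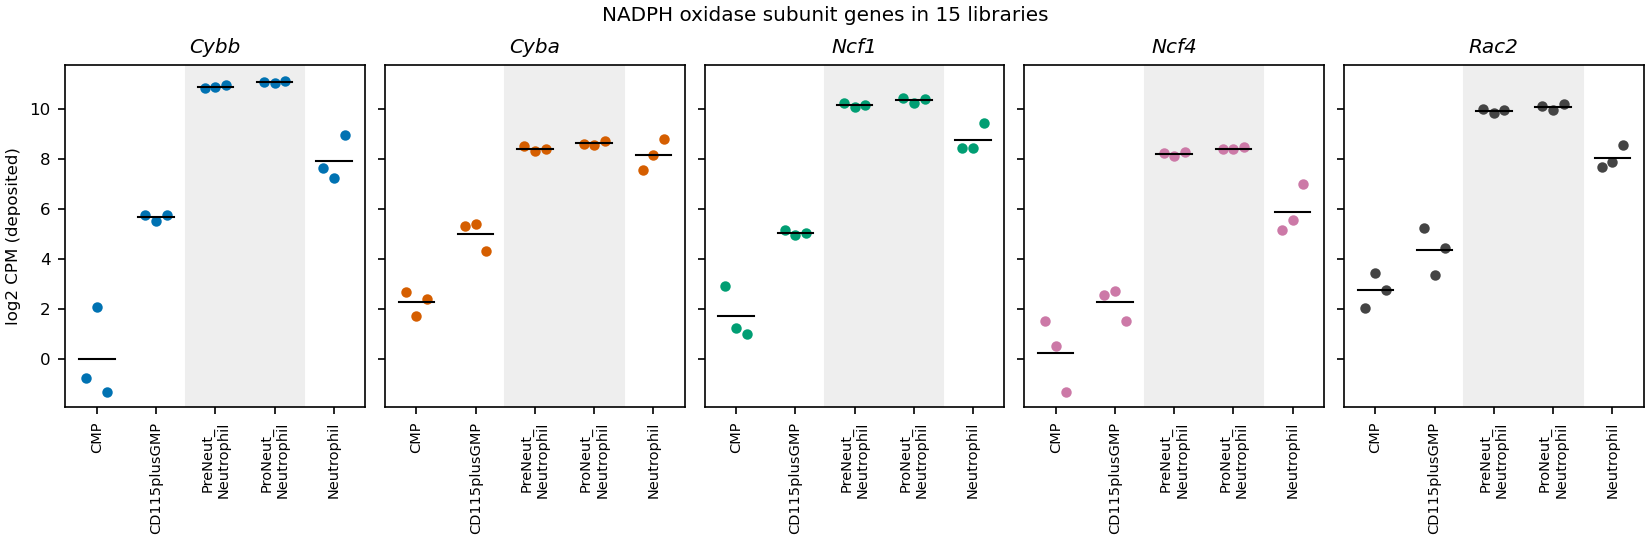
Deposited log2 CPM (y axis) of the 5 subunit genes in each of 15 libraries, by population (x axis); points are libraries, in the order of their replicate numbers, black lines group means, and grey shading marks the second library set. All 5 genes are lowest in CMP and highest in the shaded groups, and Cyba alone reaches the shaded level in Neutrophil libraries.

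The comparison of CD115plusGMP with CMP asks how oxidase genes differ between the populations labelled as progenitors. The name CMP is that of the label, and the erythroid marker level of its libraries is given below. All 5 members were called higher in CD115plusGMP by limma (Benjamini-Hochberg adjusted p under 0.05 and a log2 difference of at least 1), in a comparison in which 8.08% of 14161 tested genes were called higher. Cybb differed most, by 5.69 ± 0.62 on the log2 scale (SE, adjusted p = 1.1e-05), which placed it 21st of all tested genes by size of increase. Ncf1 differed by 3.34 ± 0.38 (adjusted p = 1.88e-05) and Cyba by 2.75 ± 0.35 (adjusted p = 5.65e-05). The calls of the other two were weaker: Ncf4 differed by 2.02 ± 0.61 (adjusted p = 0.0378) and Rac2 by 1.62 ± 0.41 (adjusted p = 0.0145), both with overlapping libraries; of all tested genes, 21.3% were higher in every CD115plusGMP library than in any CMP library. When only libraries of the first set shared the estimate of spread, neither held (adjusted p = 0.146 for Ncf4 and 0.0811 for Rac2), which left 3 of 5 members called. The SEs in that fit were 0.74 for Cybb, 0.53 for Ncf1, 0.50 for Cyba, 0.82 for Ncf4 and 0.55 for Rac2.

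Summed over the 3 libraries of a group, Cybb had 93 reads in CD115plusGMP and 4 in CMP. That gave a ratio of 40.3 after scaling by the implied library size, with a 95% counting interval of 15.2 to 151. The ratio was 10.4 for Ncf1 (60 and 10 reads; 5.28 to 22.8) and 7.68 for Cyba (62 and 14 reads; 4.25 to 14.9). It was 4.62 for Ncf4 (8 and 3 reads; 1.11 to 27.1) and 3.55 for Rac2 (45 and 22 reads; 2.09 to 6.20). These intervals cover counting error only. The one of Cybb does not reach the estimates for the other 4 members, but it overlaps the intervals of Ncf1 and Ncf4. The ratios share their libraries and their difference was not tested. Without CMP replicate 3, the difference of Ncf4 was 1.24 (adjusted p = 0.173). The call of Rac2 was lost without CMP replicate 1 (1.25, adjusted p = 0.0743) and without CD115plusGMP replicate 1 (1.17, adjusted p = 0.0671), and that of Ncf4 without CMP replicate 2 (adjusted p = 0.0686), CD115plusGMP replicate 1 (0.1) or CD115plusGMP replicate 2 (0.123).

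Markers of other cells differed between these groups. The summed level of 13 monocyte and macrophage genes was 253 to 433 CPM in CD115plusGMP libraries (10 of 13 with reads; Vcam1, C1qa and C1qb at 0), against 7.57 to 19.6 CPM in CMP libraries (7 of 13 with reads). The sum of 5 azurophilic granule genes was 382 to 804 CPM in CD115plusGMP, against 3.47 to 11.4 CPM in CMP, where Elane and Ms4a3 were at 0. The sum of 9 erythroid genes was 9.52 to 22.1 CPM in CD115plusGMP (4 of 9 with reads; Gata1 among those at 0), against 490 to 623 CPM in CMP. The part of these markers in the oxidase differences was not tested.

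The comparison of Neutrophil with CD115plusGMP sets marrow neutrophils against a progenitor of the same library set. All 5 members were called higher in Neutrophil, against 20.2% of tested genes called higher. No member's libraries overlapped; of all tested genes, 22.2% were higher in every Neutrophil library than in any CD115plusGMP library. The differences were 3.73 ± 0.38 for Ncf1, 3.69 ± 0.41 for Rac2, 3.64 ± 0.61 for Ncf4 and 3.17 ± 0.35 for Cyba (SE, limma adjusted p = 1.43e-06, 3.25e-06, 1.81e-04 and 3.23e-06). Cybb, the member with the widest step between CMP and CD115plusGMP, had the smallest one here, 2.27 ± 0.62 (adjusted p = 0.00837). Its call was lost without Neutrophil replicate 3 (1.76, adjusted p = 0.0537). With only first-set libraries fitted, the SEs were larger: 0.53 for Ncf1, 0.55 for Rac2, 0.82 for Ncf4, 0.50 for Cyba and 0.74 for Cybb. All 5 members stayed called in that fit, with a limma adjusted p of at most 0.0293 (Cybb). In scaled reads the ratio was 6.50 for Cybb (422 reads in Neutrophil and 93 in CD115plusGMP; 5.18 to 8.23) and 18.8 for Ncf4 (105 and 8 reads; 9.20 to 44.7).

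Neutrophil replicate 3 had the highest level of all 5 members in its group. Of its reads on the 13 mitochondrial protein genes, 69.1% were on ND6, against 84.5% and 90.9% in replicates 1 and 2. That library had 63.5% of its reads on identifiers without a gene symbol, against 68.0% and 69.5%. It also had the highest summed level of 12 late granule and mature neutrophil genes, 38867 CPM, against 14999 and 11433 CPM in replicates 1 and 2; all 12 had reads in the group. That sum was 30.1 to 79.3 CPM in CD115plusGMP libraries. The sum of 4 B lymphoid genes was 43.3 to 88.8 CPM in Neutrophil libraries (2 of 4 with reads; Vpreb1 among those at 0), against 1.88 to 3.90 CPM in CD115plusGMP. The sum of the monocyte and macrophage genes was 39.8 to 199 CPM in Neutrophil (11 of 13 with reads, C1qb among those at 0), below every CD115plusGMP library. Of these 13 genes, 3 were called lower and 1 higher in Neutrophil than in CD115plusGMP, and 9 were not called. The part of these markers, and of the ND6 and no-symbol shares, in the oxidase differences was not tested.

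Against CMP, all 5 members were called higher in Neutrophil, where 26.8% of tested genes were. The log2 differences were 7.95 ± 0.62 for Cybb, 7.07 ± 0.38 for Ncf1, 5.92 ± 0.35 for Cyba, 5.66 ± 0.61 for Ncf4 and 5.31 ± 0.41 for Rac2 (SE), and no libraries overlapped, where 26.4% of tested genes were higher in every Neutrophil library. The largest limma adjusted p of the 5 was 1.26e-06, for Ncf4. With only first-set libraries fitted, the largest was 3.71e-05, also for Ncf4. This comparison shares its Neutrophil and CMP libraries with the previous ones.

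**Figure D2:**
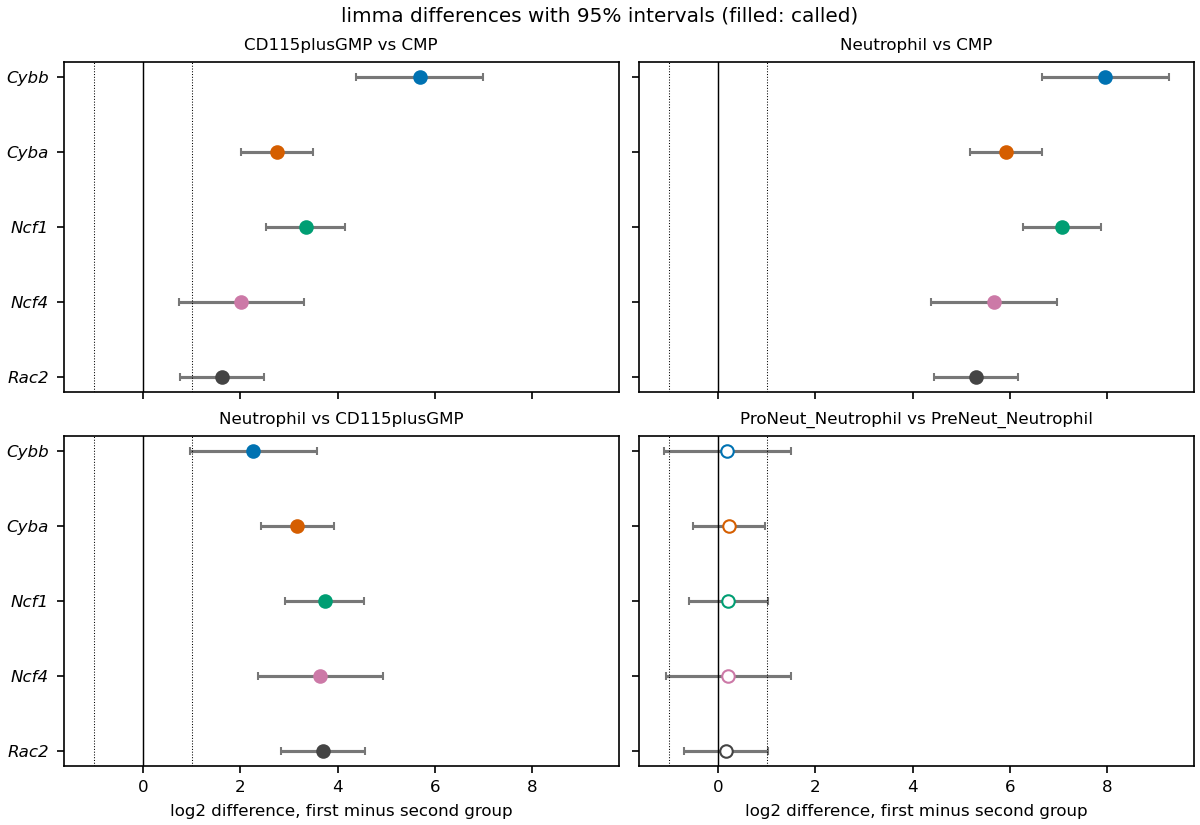
Log2 difference (x axis, first-named minus second-named group) of each subunit gene in the 4 comparisons made within a library set, with 95% intervals from limma; filled points were called and dotted lines mark a log2 difference of 1 either way. Cybb leads in CD115plusGMP against CMP (5.69) and is the smallest in Neutrophil against CD115plusGMP (2.27), and no point is filled for ProNeut_Neutrophil against PreNeut_Neutrophil. The intervals come from the fit in which all 15 libraries share the estimate of spread.

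ProNeut_Neutrophil was compared with PreNeut_Neutrophil to see whether the oxidase genes separate the 2 deeply sequenced neutrophil subsets. None of the 5 members was called by limma, in a comparison in which 2.26% of tested genes were called in either direction. An unadjusted limma p under 0.05 was found for 0 of the 5 members and for 1641 of 14161 tested genes. The differences were small and all positive: 0.19 for Cybb, 0.22 for Cyba, 0.21 for Ncf1, 0.21 for Ncf4 and 0.16 for Rac2 on the log2 scale. The 95% interval was −1.12 to 1.49 for Cybb and −0.71 to 1.02 for Rac2 when all 15 libraries shared the estimate of spread. When the 6 libraries of the second set were fitted alone, the intervals narrowed to −0.06 to 0.44 for Cybb, 0.04 to 0.41 for Cyba, −0.02 to 0.44 for Ncf1, 0.04 to 0.38 for Ncf4 and −0.07 to 0.38 for Rac2, with adjusted p from 0.0721 (Ncf4) to 0.328 (Rac2). Of the 5, Cyba (0.0206) and Ncf4 (0.0177) then had an unadjusted p under 0.05. In that fit, 515 of 14161 tested genes were called higher and 388 lower. With voom weights, which let depth set the weight of each value, the adjusted p was 0.00864 for Cyba, 0.00955 for Ncf1, 0.0146 for Cybb, 0.0215 for Ncf4 and 0.0598 for Rac2, and every difference stayed under the log2 difference of 1 needed for a call. With voom, 848 of 14161 tested genes were called higher and 515 lower. The shares of all genes that pass the p thresholds alone in these other fits are not reported here. In the fit of the second set alone, the highest upper bound of the 5 intervals was 0.44.

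Together the 5 members took 1.07% to 1.09% of the reads on genes with a symbol in ProNeut_Neutrophil libraries, against 0.999% to 1.02% in PreNeut_Neutrophil libraries, and the groups do not overlap. Over the same libraries the 5 azurophilic granule genes summed to 52.3 to 138 CPM in ProNeut_Neutrophil and 1038 to 1239 CPM in PreNeut_Neutrophil. The 12 late granule genes summed to 99881 to 124990 CPM in ProNeut_Neutrophil, against 77854 to 99894 CPM in PreNeut_Neutrophil. The 4 basophil and mast cell genes, all called lower, summed to 1.67 to 2.05 CPM in ProNeut_Neutrophil and 26.2 to 30.3 CPM in PreNeut_Neutrophil. The 9 erythroid genes, 5 of them called higher, summed to 76.7 to 85.8 CPM in ProNeut_Neutrophil and 47.3 to 68.4 CPM in PreNeut_Neutrophil. Of the 3 T and NK cell genes, 1 was called higher and 1 lower. Their sum was 3.21 to 5.24 CPM in ProNeut_Neutrophil and 21.6 to 29.3 CPM in PreNeut_Neutrophil. All of these genes had reads in both groups. The part of these markers in the oxidase levels was not tested.

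Across the library sets, all 5 members were called higher in PreNeut_Neutrophil than in CD115plusGMP, where 37.7% of tested genes were called higher. The log2 differences ran from 3.41 for Cyba through 5.11 for Ncf1, 5.23 for Cybb and 5.59 for Rac2 to 5.96 for Ncf4. Among all tested genes these differences stood at the 90.2, 98.4, 98.7, 99.1 and 99.4 percentile. In Neutrophil against ProNeut_Neutrophil, 4 of 5 members were called lower, where 28.9% of tested genes were: Cybb by −3.15 ± 0.62, Ncf4 by −2.53 ± 0.61, Rac2 by −2.06 ± 0.41 and Ncf1 by −1.59 ± 0.38 (SE, limma adjusted p = 3.59e-04, 0.00201, 4.12e-04 and 0.0019). Cyba differed by −0.47 ± 0.35 (adjusted p = 0.253) with overlapping libraries; its value was −0.16 without Neutrophil replicate 1 and −0.78 without replicate 3, and it turned to 0.94 when each library was centred on its median. Under that centring Cybb alone of the 5 was still called. The summed level of the 12 late granule genes was 11433 to 38867 CPM in Neutrophil, against 99881 to 124990 CPM in ProNeut_Neutrophil, with 7 of the 12 called lower and 3 higher; its part in the oxidase differences was not tested. Population and library set cannot be told apart in either comparison.

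Divided by exon length, 4 of the 5 members stood at nearly the same level in the second set. In ProNeut_Neutrophil the log2 CPM per kilobase was 8.56 ± 0.05 for Cybb, 8.59 ± 0.08 for Cyba, 8.50 ± 0.10 for Ncf1 and 8.48 ± 0.12 for Rac2, and 7.42 ± 0.04 for Ncf4 (SD, n = 3). In PreNeut_Neutrophil it was 8.37 ± 0.05 for Cybb, 8.37 ± 0.10 for Cyba, 8.29 ± 0.08 for Ncf1 and 8.32 ± 0.07 for Rac2, and 7.20 ± 0.07 for Ncf4. The 2 membrane subunits, which pair one to one as proteins, had a ratio per kilobase of Cybb over Cyba of 0.946 to 0.999 in ProNeut_Neutrophil libraries and 0.910 to 1.06 in PreNeut_Neutrophil libraries. Ncf1 over Ncf4 was 2.0 to 2.28 in ProNeut_Neutrophil and 2.04 to 2.22 in PreNeut_Neutrophil. Exon length is the union over annotated transcripts, so these ratios depend on the annotation.

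The first set did not show these ratios. In Neutrophil libraries the level per kilobase was 8.13 ± 0.62 for Cyba, 6.91 ± 0.56 for Ncf1, 6.42 ± 0.46 for Rac2, 5.41 ± 0.89 for Cybb and 4.89 ± 0.96 for Ncf4 (log2 CPM per kilobase, SD, n = 3). Cybb over Cyba was 0.0943 to 0.197 in Neutrophil and 0.195 to 0.501 in CD115plusGMP libraries. In CMP it was 0.239 in replicate 2, and Cybb had 0 reads in the other two libraries. Per length, Cyba had the highest level of the 5 members in 8 of 9 first-set libraries; in CMP replicate 2, where it had 3 reads, Rac2 was higher.

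**Figure D3:**
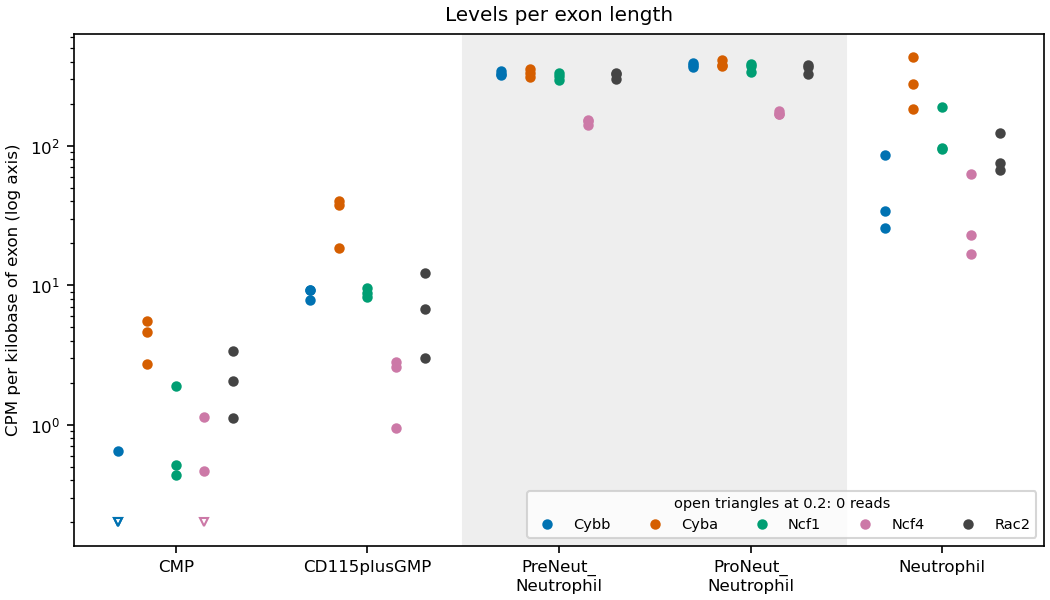
CPM per kilobase of exon (y axis, log scale) for the 5 subunit genes in each library, by population (x axis); points are libraries, open triangles stand for 0 reads, and grey shading marks the second library set. In the shaded groups Cybb, Cyba, Ncf1 and Rac2 coincide and Ncf4 lies below them, while in Neutrophil the genes spread out with Cyba at the top.

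As a share of the reads of the 5 members together, Cybb held 31.3%, 34.3% and 41.8% in CD115plusGMP libraries and 0%, 19.0% and 0% in CMP libraries. It held 40.0% to 41.8% in ProNeut_Neutrophil and 39.1% to 41.9% in PreNeut_Neutrophil. In Neutrophil libraries it held 20.2%, 14.1% and 23.1%, below every CD115plusGMP library, while Ncf1 held 36.0%, 32.9% and 32.3%, above every CD115plusGMP library (20.6%, 22.9% and 25.4%). Totals of 16 to 21 reads in CMP and 67 to 131 in CD115plusGMP limit these shares, and no test was made of them. Within the first set the members correlated with each other across 9 libraries at Pearson r of 0.865 to 0.983, lowest for Cybb with Ncf4 and highest for Cyba with Ncf1, which describes points that share libraries, depth and the differences between groups.

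**Figure D4:**
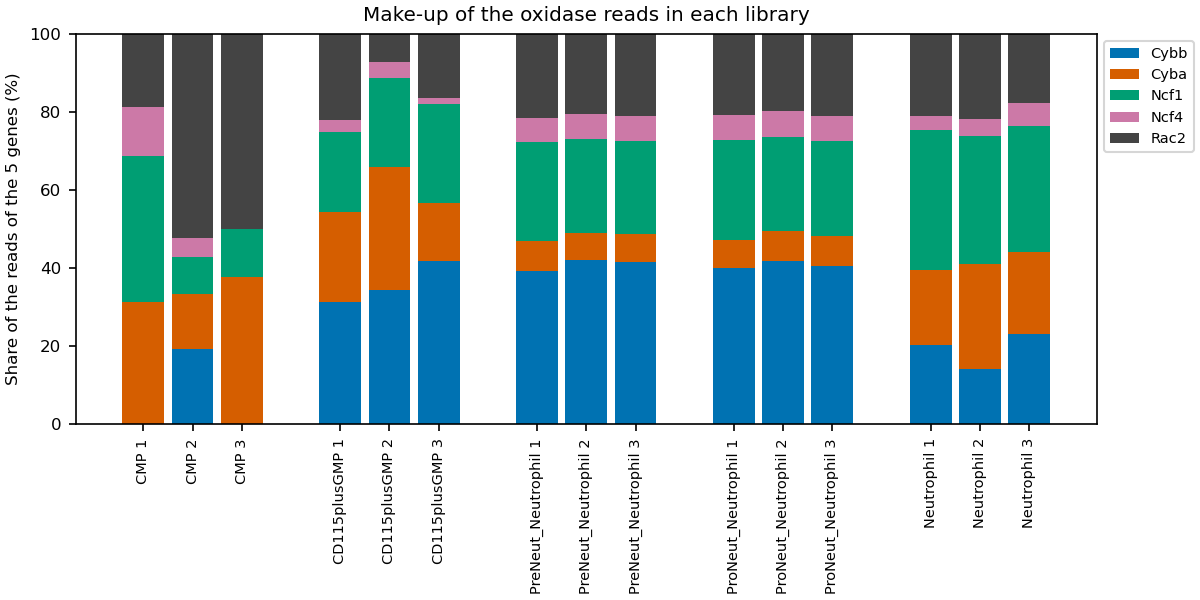
Share of each gene in the reads of the 5 subunit genes (y axis, percent), one bar per library in order of population. The 6 bars of PreNeut_Neutrophil and ProNeut_Neutrophil are nearly alike with Cybb at 39.1% to 41.9%, and Ncf1 is the largest part in each Neutrophil bar.

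Ncf1 needs its opposite-strand neighbour beside it. Gtf2ird2, a gene of the TFII-I family, had 759, 1046 and 1022 reads in Neutrophil libraries, where Ncf1 had 114, 114 and 432. In CD115plusGMP it had 88, 74 and 46 reads and in CMP 11, 19 and 25, more than Ncf1 in every first-set library. In the second set the order was the other way, with 24, 33 and 40 reads of Gtf2ird2 in ProNeut_Neutrophil, against 20914, 25879 and 35170 of Ncf1, and 67, 82 and 304 in PreNeut_Neutrophil, against 32901, 27639 and 161974 of Ncf1. The 2 genes moved together within the first set: in Neutrophil against CD115plusGMP, Gtf2ird2 differed by 4.36 ± 0.37 and Ncf1 by 3.73 ± 0.38 (SE). They moved apart between the sets: in PreNeut_Neutrophil against CD115plusGMP, Gtf2ird2 differed by −5.44 ± 0.37 and Ncf1 by 5.11 ± 0.38. Reads of the 2 genes cannot be told apart where their exons overlap if strand was not used. If the first set was counted on the opposite strand, reads of Ncf1 in the shared bases would be listed under Gtf2ird2; which of these holds was not tested.

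**Figure D5:**
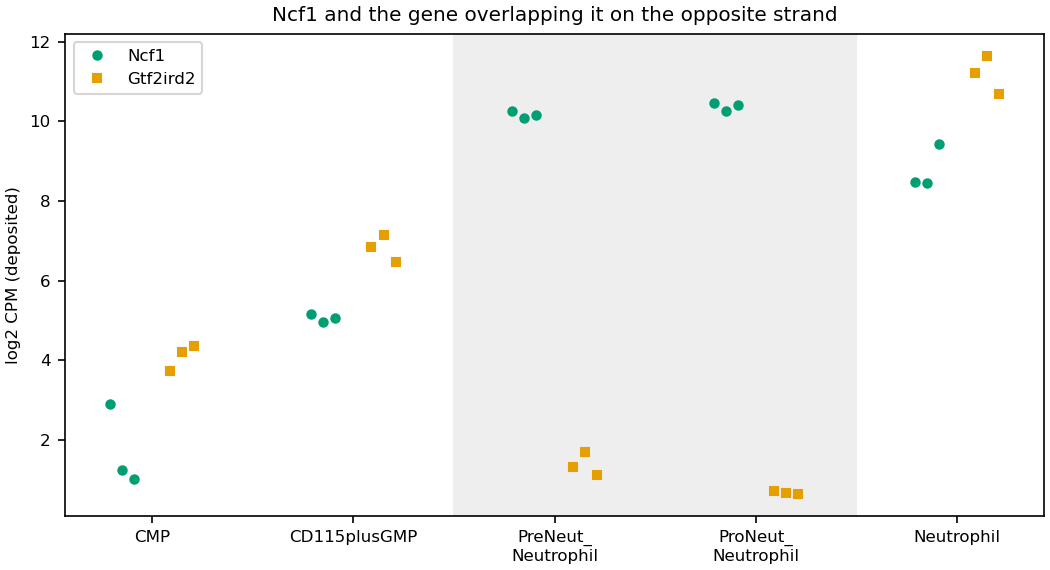
Deposited log2 CPM (y axis) of Ncf1 (circles) and of Gtf2ird2 on the opposite strand (squares) in each library, by population (x axis); grey shading marks the second library set. Gtf2ird2 lies above Ncf1 in all 9 first-set libraries and far below it in all 6 second-set libraries.

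Of 32 tested genes of oxidase assembly and its regulators, 13 were called higher and 0 lower in CD115plusGMP than in CMP. Of all tested genes, 8.08% were called higher and 4.56% lower. The median log2 difference of the 32 was 1.18, against 0.26 over all genes tested. Arhgdib, which holds Rac proteins inactive in blood cells, differed by 2.95 ± 0.37 (SE, limma adjusted p = 4.9e-05), with 136 exon bases shared with an opposite-strand gene. Prkcb, a kinase that phosphorylates the Ncf1 protein, had 13 reads in CD115plusGMP and 2 in CMP, a scaled ratio of 11.3 (2.55 to 103), and Fgr, a Src-family kinase, had 7 and 0, at least 4.05-fold higher with a floor of 3 reads over the group. Rac1, the widely expressed relative of Rac2, was also called higher, by 1.67 ± 0.26 (adjusted p = 3.92e-04), and 2309 of its exon bases overlap an opposite-strand gene.

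In Neutrophil against CD115plusGMP, 20 of the 32 were called higher and 0 lower (median log2 difference 1.79, against 0.32 over all genes). Of all tested genes, 20.2% were called higher and 13.2% lower. Fgr differed by 5.20 ± 0.38, Prex1, an exchange factor that activates Rac2, by 4.61 ± 0.50 and Prkcb by 4.36 ± 0.49 (SE, limma adjusted p of at most 3.75e-06). In Neutrophil against CMP, 24 of 32 were called higher and 0 lower, where 26.8% of all tested genes were called higher and 17.1% lower. In ProNeut_Neutrophil against PreNeut_Neutrophil, 0 of 32 were called in either direction, where 2.26% of all tested genes were. The widest differences were 1.34 for Vav2 and 1.08 for Prex1 (limma adjusted p = 0.771 and 0.418). The calls for the first 3 comparisons were 9 to 15, 11 to 22 and 18 to 26 higher, with at most 1 lower, under the other 5 scalings tried.

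Rac2 was set against its relative Rac1. Per kilobase, Rac2 over Rac1 was 12.0 to 13.8 in ProNeut_Neutrophil and 12.1 to 12.4 in PreNeut_Neutrophil libraries. It was 0.867, 1.49 and 2.30 in Neutrophil libraries, 0.168 to 0.531 in CD115plusGMP and 0.217 to 0.590 in CMP, so that Rac1 was the higher of the pair in every progenitor library and in 1 of 3 Neutrophil libraries. The exon overlap of Rac1 with its opposite-strand neighbour touches this ratio in the first set.

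For the lists that follow, 8.08% of all tested genes were called higher and 4.56% lower in CD115plusGMP against CMP (median log2 difference 0.26). In Neutrophil against CD115plusGMP, 20.2% were called higher and 13.2% lower (median 0.32). In ProNeut_Neutrophil against PreNeut_Neutrophil, 2.26% were called in either direction. Genes that supply NADPH were called in both directions. Of 12 tested, 3 were higher and 0 lower in CD115plusGMP than in CMP (median log2 difference 0.84), namely Idh1 (3.77 ± 0.55), H6pd (2.47 ± 0.63) and Pgd (2.21 ± 0.34; SE, limma adjusted p = 2.05e-04, 0.0152 and 3.24e-04); Pgd encodes an NADPH-making step of the pentose phosphate pathway and Idh1 the cytosolic NADP-linked isocitrate dehydrogenase. In Neutrophil against CD115plusGMP, 6 were called higher and 2 lower (median 1.25). The pentose phosphate genes Taldo1 (3.56 ± 0.46) and Pgd (3.31 ± 0.34) and the NAD kinase Nadk (3.18 ± 0.43) were higher and Idh2, the mitochondrial isocitrate dehydrogenase, was lower (−3.06 ± 0.65; SE, limma adjusted p of at most 0.00152). Under quantile normalization that count was 3 higher and 4 lower, and with median centring 7 higher and 1 lower. In ProNeut_Neutrophil against PreNeut_Neutrophil, 0 of 12 were called.

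Of 23 tested genes that remove superoxide and peroxide, 3 were called higher and 4 lower in CD115plusGMP than in CMP (median log2 difference −1.14). Gsr, glutathione reductase, was higher by 3.45 ± 0.40 and Prdx5, a peroxiredoxin, by 2.78 ± 0.50 (SE, limma adjusted p = 2.41e-05 and 0.00116); Gpx3, a secreted glutathione peroxidase, had 18 reads in CD115plusGMP and 2 in CMP, a scaled ratio of 15.6 (3.74 to 139). Prdx3, the mitochondrial peroxiredoxin, was at least 5.19-fold lower (0 reads in CD115plusGMP, 27 in CMP). In Neutrophil against CD115plusGMP, 7 were called higher and 5 lower (median 0.57): Prdx5 differed by 3.31 ± 0.50 and Txn1 by 2.77 ± 0.45, while Txnrd2 (0 and 27 reads) was at least 6.28-fold lower and Prdx2 (0 and 16 reads) at least 3.72-fold lower. Prdx2, Prdx5 and Txnrd2 share 350, 409 and 176 exon bases with opposite-strand genes. With plain library totals the counts were 3 higher and 11 lower in the first of these comparisons and 4 higher and 7 lower in the second, and with median centring 3 higher and 2 lower, and 10 higher and 2 lower, so the lean of this list depends on the scaling. In ProNeut_Neutrophil against PreNeut_Neutrophil, 0 of 23 were called.

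Of 12 transcription factors tied to oxidase genes, 5 were called higher and 1 lower in CD115plusGMP than in CMP (median log2 difference 1.83; 3 higher and 1 lower with plain library totals). Cebpb differed by 3.37 ± 0.38, Spi1, which encodes PU.1, by 2.13 ± 0.55 and Irf8 by 1.86 ± 0.58 (SE, limma adjusted p = 1.66e-05, 0.0166 and 0.0452). Cebpa had 69 reads in CD115plusGMP and 3 in CMP, a scaled ratio of 39.9 (13.1 to 198), and Cebpe 12 and 1, a ratio of 20.8 (3.08 to 889). Cebpb, Irf1 and Cebpa share 312, 135 and 51 exon bases with opposite-strand genes. Hoxa10 was lower, with 3 reads in CD115plusGMP and 51 in CMP (ratio 0.102; 0.0204 to 0.315). In Neutrophil against CD115plusGMP, 4 were higher and 1 lower (median −0.09): Cebpe differed by 3.92 ± 0.48, Irf1 by 3.64 ± 0.51 and Spi1 by 3.03 ± 0.55 (SE, limma adjusted p = 9.64e-06, 3.44e-05 and 3.83e-04). Irf8, which favours monocytes over neutrophils, had 0 reads in Neutrophil and 92 in CD115plusGMP, at least 21.4-fold lower. In ProNeut_Neutrophil against PreNeut_Neutrophil, Hoxa10 was the only one called, with 19 reads and 0 reads, at least 19.9-fold higher, and it was not called under quantile normalization or on the log2(CPM + 1) scale.

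The other NADPH oxidase family genes were represented by 1 gene of the table, Noxo1, the organiser of a related epithelial oxidase. It had 0 reads in Neutrophil libraries, against 39 in CD115plusGMP, at least 9.07-fold lower. It shares 2122 exon bases with Tbl3 on the opposite strand.

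The genes whose pattern was most like each member were found by Pearson r over the 15 libraries, after the mean of its library set was taken from each value, among 1549 genes with a mean log2 CPM of at least 5 in a group of each set. For Cybb these were Mtus1 (r = 0.985), Clec12a (0.978), Lyz2 (0.977), Chil3 (0.968) and Rab27a (0.963). For Cyba they were led by Tnfrsf1a (0.991) and Nedd9 (0.990), for Ncf1 by Anxa1 (0.993) and F5 (0.992), for Ncf4 by Rgs2 (0.983) and Msrb1 (0.977), and for Rac2 by Ptpn6 (0.998) and Itgal (0.994). The points share library, depth and group, so these values describe likeness only. Anxa1 was among the 5 most alike for Cyba, Ncf1 and Ncf4. The lists of Cybb and of Rac2 each shared no gene with that of any other member.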

How the data were processed

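RNA sequencing libraries were made with the Universal Plus mRNA-Seq kit, per the labels' protocols. The table the authors deposited holds log2 CPM of 14801 genes by Entrez identifier. FastQC 0.11.7, featureCounts 1.22.2, edgeR 1.30.5 and GRCm38 (mm10) are named, per the submitters' processing notes; the sources used here do not give the aligner, annotation or strand setting. Every deposited value equals log2 of a whole number of reads plus 0.5, times a step constant in its library (100% of values, tolerance 0.001 reads), so reads were recovered; their totals cover the table only.

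Groups came from the labels. Replicates were compared by chi-square of their reads (1.68 to 23.5 per degree of freedom), and each was kept as a library of its own. Genes with log2 CPM above 0 in at least 3 of 15 libraries (14161) were fitted with limma 3.58.1 in R 4.3.3 (eBayes with trend, all 15 libraries), with 2-sided p adjusted by Benjamini-Hochberg over all genes tested. A gene was called at adjusted p under 0.05 and an absolute log2 difference of at least 1. Each SE and adjusted p is from this shared fit unless another fit is named. First-set SEs of the members were larger when that set was fitted alone. Genes of the lists are given from the shared fit only. The fit was tested on simulated data with the same dispersion for all genes and libraries. That test does not cover a spread that differs between the library sets. Floors are 3 reads over a group; 95% read-ratio intervals are exact and cover counting error. Exon lengths and overlaps came from GENCODE M21, to which 14048 genes were matched. From each gene list up to 4 genes per comparison were named, by the size of their difference, called ones first; Rac1, Irf8, Spi1 and other genes outside that rule were named after their values were seen, and a few genes the rule picks are not reported here. Members and lists were chosen with earlier results of these data known. Alternatives were other scalings, filters, weights, sets and left-out libraries.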

Additional observations from a re-analysis of the deposited data

How the results depend on the processing

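Under all alternatives tried, the members' differences kept their direction except that of Cyba in Neutrophil against ProNeut_Neutrophil, which turned to 0.94 (adjusted p = 0.0369) with median centring; the cause was not tested. In CD115plusGMP against CMP, 3 members were called with only the same set fitted, plain library totals, CPM over identifiers with a symbol, voom weights or eBayes without trend, and 3 to 5 with 1 library left out. In Neutrophil against CD115plusGMP it was 4 to 5 with 1 library left out, and Cybb was at 1.20, 1.46 and 1.70 under quantile normalization, plain totals and CPM over identifiers with a symbol, with adjusted p of 0.286, 0.119 and 0.0585. In Neutrophil against ProNeut_Neutrophil, 1 member was called with median centring, and Cyba was called lower under the 3 scalings just named (−2.97, −3.01 and −1.41). Over all genes, 2689 were called in CD115plusGMP against CMP with quantile normalization, against 1790, and 1311 to 1706 with 1 library left out. In ProNeut_Neutrophil against PreNeut_Neutrophil the count was 320, and 903 with the same set only, 126 with quantile normalization, 186 with median centring, 91 on log2(CPM + 1), 1363 with voom and 195 to 405 with 1 library left out. The median difference of all genes in CD115plusGMP against CMP was 0.26, and −0.30 to 0.61 under other scalings. Same-numbered libraries correlated at −0.0895 to 0.145 in their deviations. Of 6 libraries, 0 correlated best with their own number in CD115plusGMP against CMP. It was 4 of 6 in ProNeut_Neutrophil against PreNeut_Neutrophil and 5 of 6 in Neutrophil against ProNeut_Neutrophil. This check does not settle whether the numbers pair the libraries. With a replicate block, 4 members and 1680 genes were called in CD115plusGMP against CMP (Ncf4 limma adjusted p = 0.0525). With that block, 0 members were called in ProNeut_Neutrophil against PreNeut_Neutrophil. Depth limits CMP most, where the 5 members together had 16 to 21 reads per library.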
